A study of Mus musculus with 4 samples.

Results

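Accessible regions that lay at the ends of neighbouring protein-coding genes were described here in mouse macrophages. ATAC-seq peak lists of 4 libraries were merged into 91858 union regions, a region being any stretch where peaks of the lists overlapped by at least 1 bp. A region was kept when it lay within 1 kb of an annotated end, at either side, of at least 2 different protein-coding genes. This gave 2059 paired regions, of which 2014 reached 2 genes and 45 reached 3. They are compared with 12360 single-gene regions, which lay within 1 kb of an end of 1 gene only. The remaining 77439 regions had no gene end within 1 kb.

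ATAC-seq uses a transposase that cuts and tags open chromatin, so that its peaks mark accessible DNA such as promoters and enhancers. The cells were bone marrow-derived macrophages grown for 7 to 10 days with L929 cell medium, a source of macrophage growth factor, and then kept for 24 h in medium from cultures of Hepa1-6, a mouse hepatoma line. KO cells came from Ezh2fl/fl;LysM-Cre+/- mice, in which a Cre recombinase active in myeloid cells deletes Ezh2, floxed on both alleles. Ezh2 encodes an H3K27 methyltransferase of Polycomb repressive complex 2. WT cells came from littermate controls whose own alleles the labels do not spell out. There were 2 libraries per genotype, all 4 with the tumour medium, and libraries without it were not analysed here.

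No label ties replicates to separate mice or cultures, so SDs and p-values here cover the spread of the libraries alone. The lists held 67055 to 72887 peaks, and with no read counts in them the sequencing depth is unknown. All 10 macrophage markers, among them Spi1, Csf1r and Adgre1, had a region at a gene end in all 4 libraries. Of the markers of other cell types, 1 of 5 for neutrophils, 1 of 4 each for B cells, T and NK cells, and hepatocytes and hepatoma, 2 of 4 for dendritic cells, and 1 of 3 each for erythroid cells and fibroblasts did. At Ezh2 itself the region at the gene's higher-coordinate end was called in every library, and a region inside the gene covered 403 and 372 bp in WT but 106 and 182 bp in KO. Another region inside Ezh2, also in every library, covered 152 and 382 bp in WT, with the KO values of 273 and 267 bp between them. Peaks cannot show a deletion directly, so the labels were not checked further.

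Neighbouring genes can meet in several orders. In the head to head order, 2 genes on opposite strands start next to each other and are transcribed apart, often from a shared bidirectional promoter. Here opposite-strand starts whose gene bodies overlap, and so are transcribed across each other at first, were counted as head to head too. In the head to tail order the start of a gene follows the 3' end of its neighbour on the same strand, and in the tail to tail order 2 genes end next to each other. Bidirectional promoters are usually rich in CpG, often lack a TATA box, and are well known at genes for DNA repair, mitochondrial function and histones.

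The stretches between the starts of 8 head to head pairs are printed first, since they are the DNA that both genes of a pair share. They were chosen to stand for the groups described below: antigen processing (Tap1 and Psmb9), mitochondrial translation (Mrps12 with Sars2, and Mrpl46 with Mrps11), respiration (Sdhd with Timm8b), histones (H2ac15 with H2bc15, and H2ac8 with H2bc8) and the strongest peaks (Nfkbib with Sirt2, and Tctn3 with Entpd1). Each runs 5′ to 3′ on the strand of the gene named first, from the base after the neighbour's start to the base before its own start, and comes from RefSeq's promoter windows on GRCm38.p6, the assembly behind mm10. Capitals mark matches to 8 short motifs searched on both strands: CCAAT (the NF-Y box), GGGCGG (the GC box of SP and KLF factors), TATAAA (the TATA box), CCGGAAG (ETS factors), ATGGCGG (YY1), GCATGCG (NRF1), TGACGT (the cAMP response element core) and TGANTCA (AP-1).
Tap1/Psmb9: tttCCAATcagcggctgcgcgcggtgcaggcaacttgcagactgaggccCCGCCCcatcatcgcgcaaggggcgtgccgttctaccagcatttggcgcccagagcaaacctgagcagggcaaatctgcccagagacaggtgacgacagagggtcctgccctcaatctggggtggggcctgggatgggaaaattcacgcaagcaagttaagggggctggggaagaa
Mrps12/Sars2: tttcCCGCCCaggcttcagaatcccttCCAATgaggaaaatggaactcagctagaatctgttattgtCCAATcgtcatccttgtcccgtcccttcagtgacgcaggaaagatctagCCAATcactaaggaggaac
Mrpl46/Mrps11: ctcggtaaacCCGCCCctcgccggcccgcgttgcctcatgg
Sdhd/Timm8b: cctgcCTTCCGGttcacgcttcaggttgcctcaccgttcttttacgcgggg
H2ac15/H2bc15: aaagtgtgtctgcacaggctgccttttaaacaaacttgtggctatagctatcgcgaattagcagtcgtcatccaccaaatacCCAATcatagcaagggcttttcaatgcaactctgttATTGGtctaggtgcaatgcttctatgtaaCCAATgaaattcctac
H2ac8/H2bc8: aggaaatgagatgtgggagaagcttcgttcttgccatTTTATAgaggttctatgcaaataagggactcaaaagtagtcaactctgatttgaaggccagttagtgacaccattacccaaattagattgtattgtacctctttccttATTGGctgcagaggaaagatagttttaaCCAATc
Nfkbib/Sirt2: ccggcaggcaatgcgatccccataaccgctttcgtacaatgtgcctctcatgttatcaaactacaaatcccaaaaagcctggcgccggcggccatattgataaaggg
Tctn3/Entpd1: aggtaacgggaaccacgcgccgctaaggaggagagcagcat
In order, they lie at chr17:34187331-34187555 on the + strand, and on the - strand at chr7:28741822-28741956, chr7:78783090-78783130, chr9:50603850-50603900, chr13:21753913-21754075, chr13:23571221-23571399, chr7:28766645-28766751 and chr19:40612325-40612365. The Mrps12/Sars2 stretch holds 3 CCAAT boxes and a GC box, the H2ac15/H2bc15 stretch 3 CCAAT boxes, and the H2ac8/H2bc8 stretch 2 CCAAT boxes and a TATA box read on the other strand. The Tap1/Psmb9 stretch holds a CCAAT box and a GC box. The Sdhd/Timm8b stretch holds an ETS motif and the Mrpl46/Mrps11 stretch a GC box. None of the 8 motifs is in the stretches of Nfkbib/Sirt2 and Tctn3/Entpd1, which says only that these letters are not there. All 8 stretches lay in regions called in all 4 libraries.

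A larger share of paired regions than of single-gene regions was called in every library. A library calls a region when any of its peaks overlaps it. All 4 libraries called 1882 of the 2059 paired regions, or 91.4% (95% exact Clopper-Pearson interval 90.1 to 92.6, counting error only), against 80.6% of single-gene regions (79.9 to 81.3) and 57.8% of all regions. The share of paired regions called was 95.2% and 95.3% in WT and 95% and 94.9% in KO. For single-gene regions the shares were 88.32% and 90.20% in WT and 87.74% and 89.52% in KO, below the paired share in every library. The difference was 6.16 ± 1.09 percentage points (SD, n = 4 libraries; exact sign-flip permutation test, two-sided, p = 0.13, adjusted p = 0.135 over 13 comparisons), and 0.13 (1 in 8) is the smallest p that 4 libraries allow. Of the 177 paired regions missing from at least 1 library, 92 were in a single library, 42 in 2 and 43 in 3.

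Paired regions were also wider. Their median width was 846 bp (interquartile range 596 to 1117.5), against 706 bp (400 to 999.25) for single-gene regions. In each library's own peaks, the median number of bases covered in called paired regions was 729 and 741 bp in WT and 732.5 and 753 bp in KO, and in single-gene regions 607 and 623 bp in WT and 611 and 645 bp in KO. The difference was 117 ± 6.50 bp (SD, n = 4; exact sign-flip permutation p = 0.13, adjusted p = 0.135). The fold value of each peak is the authors' own enrichment over local background, and it serves here only to describe and rank peaks within a list, never to compare libraries. The median percentile was 77.2 and 78.2 in WT and 78.05 and 78.7 in KO for paired regions, and 67.3, 67.6, 68.1 and 68.1 in the same order for single-gene regions, a difference of 10.3 ± 0.380 (n = 4; exact sign-flip permutation p = 0.13, adjusted p = 0.135). Without the weakest 50% of each list's peaks it was 2.80. Width is partly tied to the choice of members, since distance was measured from a region's edge and a wide region reaches further. With distance measured from the centre, which was tried after the data were seen, the differences were 6.12 percentage points, 108 bp and 10.7 percentiles. Regions share libraries and are no replicates, so only the 4 libraries enter these tests.

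**Figure D1:**
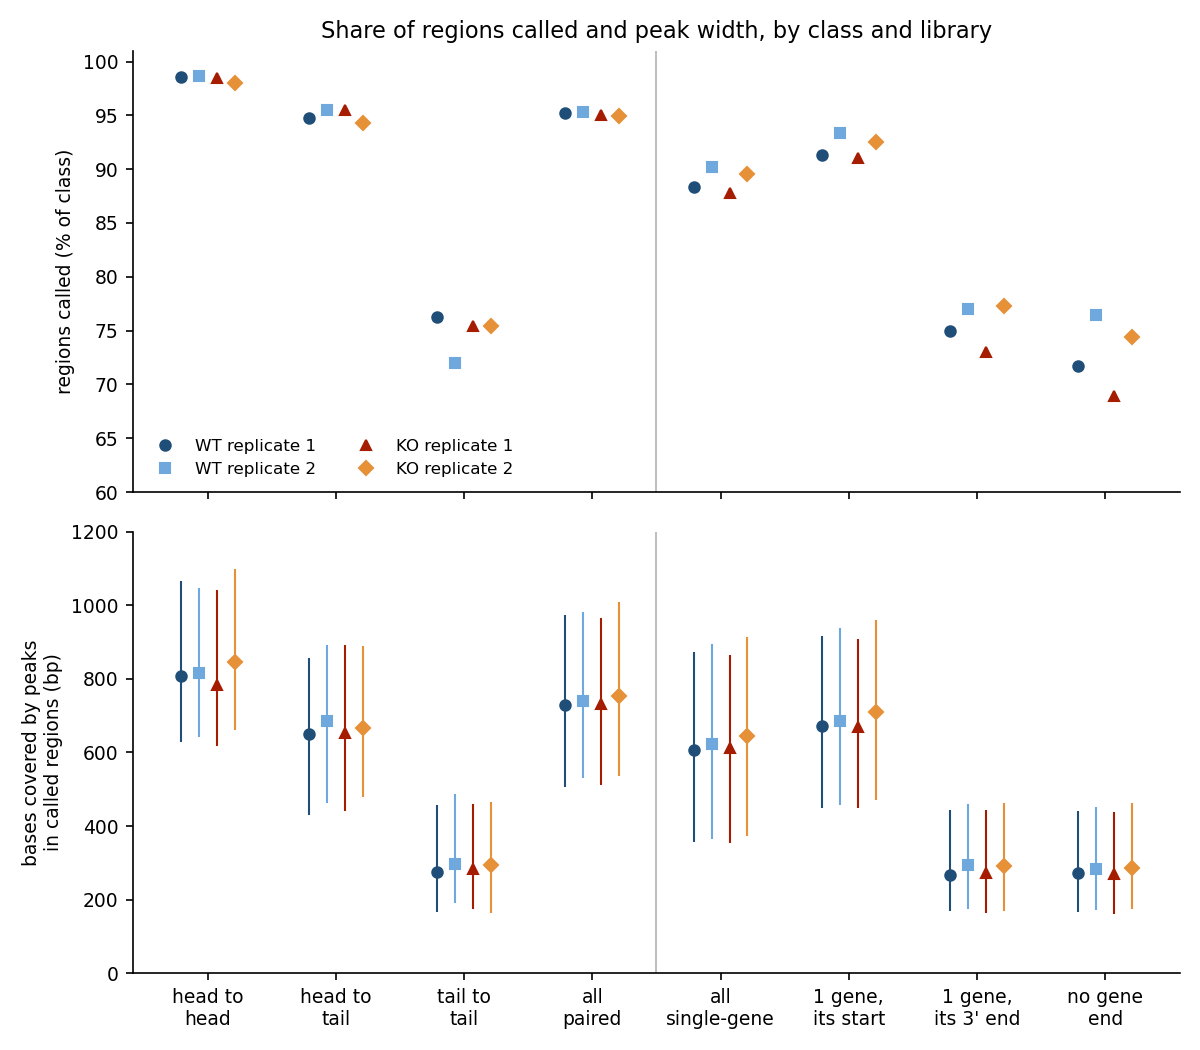
Upper panel: share of regions called (% of the class) in each of the 4 libraries. Lower panel: bases covered by peaks in called regions (bp), with points at the median and bars from the lower to the upper quartile. Paired regions and their head to head and head to tail members sit above 94% in every library, while tail to tail regions sit between 72.03% and 76.27%, near regions at the 3' end of a single gene.

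The order of the genes separated the paired regions into unlike groups. RefSeq's windows gave a strand for 17492 of 21900 protein-coding genes, so that 549 paired regions (26.7%) had an order that was not placed. Of the rest, 913 were head to head (44.3% of all paired regions), 403 head to tail (19.6%), 118 tail to tail (5.73%) and 76 in other orders, such as nested genes on the same strand. All 4 libraries called 96.6% of head to head regions (exact interval 95.2 to 97.7), 91.1% of head to tail regions (87.8 to 93.7) and 61% of tail to tail regions (51.6 to 69.9). The median width fell in the same order in these lists, at 946, 758 and 315.5 bp. Per library, head to head regions were called at 98.58% and 98.69% in WT and 98.47% and 98.03% in KO. Head to head regions exceeded the other placed paired regions by 7.36 ± 0.530 percentage points in share called, 200.1 ± 21 bp in covered width and 14.8 ± 1.43 in percentile of fold, each in 4 of 4 libraries (SD, n = 4; exact sign-flip permutation p = 0.13, adjusted p = 0.135 for each). Without the weakest 50% of each list's peaks the percentile difference was 5.62, and over the alternatives the difference in share ran from 3.75 to 11.2.

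Regions near 2 starts exceeded regions near a lone start in these measures. Of regions near the start of a single gene, 85.8% (6947 of 8094) were in all 4 libraries, at a median width of 787 bp. The regions with 2 starts were called more often by 6.36 ± 1.14 percentage points, covered 128 ± 9.44 bp more and stood 10.9 ± 0.227 percentiles higher (SD, n = 4; exact sign-flip permutation p = 0.13, adjusted p = 0.135 for each), in 4 of 4 libraries. The percentile difference was 6.83 without the weakest 25% of peaks and 2.95 without the weakest 50%, and the difference in share ran from 4.23 to 10.03 over the alternatives.

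Regions near 2 gene 3' ends did not clearly exceed those near a lone 3' end. Tail to tail regions were called at 76.27% and 72.03% in WT and 75.42% in both KO libraries, against a mean of 75.6 ± 2.01% for regions at the 3' end of 1 gene. The difference in share was -0.776 ± 3.36 percentage points (n = 4; exact sign-flip permutation p = 0.75, adjusted p = 0.75), and in covered width 5.5 ± 4.02 bp (exact permutation p = 0.13, adjusted p = 0.135). The percentile of fold was higher in tail to tail regions by 10.04 ± 3.45 (exact permutation p = 0.13, adjusted p = 0.135). This comparison was added after the data were seen, and each of its 3 values changed sign under at least 1 alternative setting, given with the limits. Gorasp1 and Wdr48, a Golgi stacking gene and a deubiquitinase cofactor gene, were a tail to tail pair with one of the strongest peaks of all, at fold 10.5 and 9.04 in WT and 11.1 and 10.5 in KO.

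Most paired regions sat across both gene ends rather than beside them. Both ends lay inside the region in 1124 of 2059 cases (54.6%), in 743 of 913 head to head regions (81.4%), in 81 of 403 head to tail regions (20.1%) and in 4 of 118 tail to tail regions (3.39%). The median distance between the paired ends was 147 bp for head to head regions, 581 bp for head to tail regions and 363.5 bp for tail to tail regions. Gene bodies overlapped at 341 head to head regions (37.3%). Among head to head regions without overlap, all 4 libraries called 98.8% of the 404 with starts up to 200 bp apart, 99.1% of the 109 farther apart up to 500 bp, 94.6% of the 37 beyond that up to 1000 bp and 90.9% of the 22 still farther apart. A single region held both starts in 95.3%, 94.5%, 43.2% and 4.55% of these classes, respectively. Width itself followed the distance little. Spearman's rho across head to head regions was 0.089 (n = 913), across head to tail regions 0.128 (n = 403) and across tail to tail regions 0.224 (n = 118), given as a description because the regions share libraries.

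**Figure D2:**
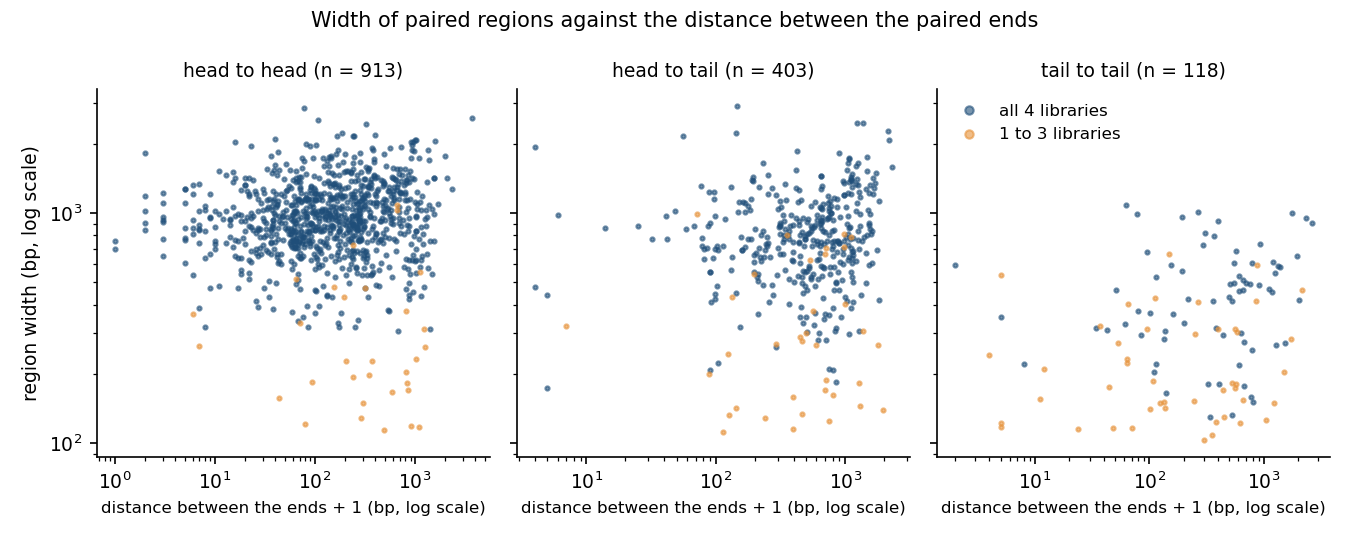
Width of each paired region (bp, log scale) against the distance between the nearest ends of its 2 nearest genes (bp plus 1, log scale), by gene order. Dark points are regions called in all 4 libraries and light points those called in 1 to 3, which are mostly the narrow ones. Head to head regions without overlap had median widths of 930 bp at distances up to 200 bp and 959 bp beyond that up to 500 bp.

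At the edge of the rule, the regions just inside the limit for the second gene lay at Zfp354c and Zfp879 (1000 bp, 4 libraries), Tmem104 and Grin2c (998 bp, 2 libraries) and Wiz and Rasal3 (997 bp, 4 libraries). Those just outside lay at Ankrd39 and Sema4c, H3c13 and H2bc18, and Cdk11b and Slc35e2, each at 1001 bp and in all 4 libraries.

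The same contrast was visible from the genes' side. An annotated start was counted as open in a library when a peak lay within 100 bp. Of 1795 starts with an opposite-strand start within 1 kb, 87.4% were open in all 4 libraries (exact interval 85.7 to 88.9), against 39.0% of 14072 isolated starts (38.2 to 39.8), which had no end of another protein-coding gene within 2 kb. Starts that had only a neighbour's 3' end nearby stood at 48.2% (43.8 to 52.6, n = 525). In WT 88.97% and 89.3% of head to head starts were open and in KO 88.7% and 89.3%, against 40.9% to 41.7% of isolated starts. The difference, a comparison added after the data were seen, was 47.8 ± 0.127 percentage points (SD, n = 4 libraries; exact sign-flip permutation p = 0.13, adjusted p = 0.135). The share was highest where starts were closest: 95.2% at up to 100 bp, then 89.97% at up to 200 bp, 92.6% at up to 300 bp, 81.7% at up to 500 bp and 60.2% at up to 1000 bp. Both starts of a head to head pair can be counted from the same peak, also when they lie well over 100 bp apart, so paired starts are not independent. Among head to head regions without overlap, a single region held both starts in 95.3% at distances up to 200 bp. The share was 94.5% beyond that up to 500 bp and 43.2% from there up to 1000 bp. Isolated starts have no such neighbour, and the part of this in the difference was not tested. Of 892 mutual pairs, 756 to 765 had both starts open in a given library, 63 to 70 had 1 and 63 to 66 had neither. Whether the genes were transcribed was not measured here, and its part in these shares was not tested.

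**Figure D3:**
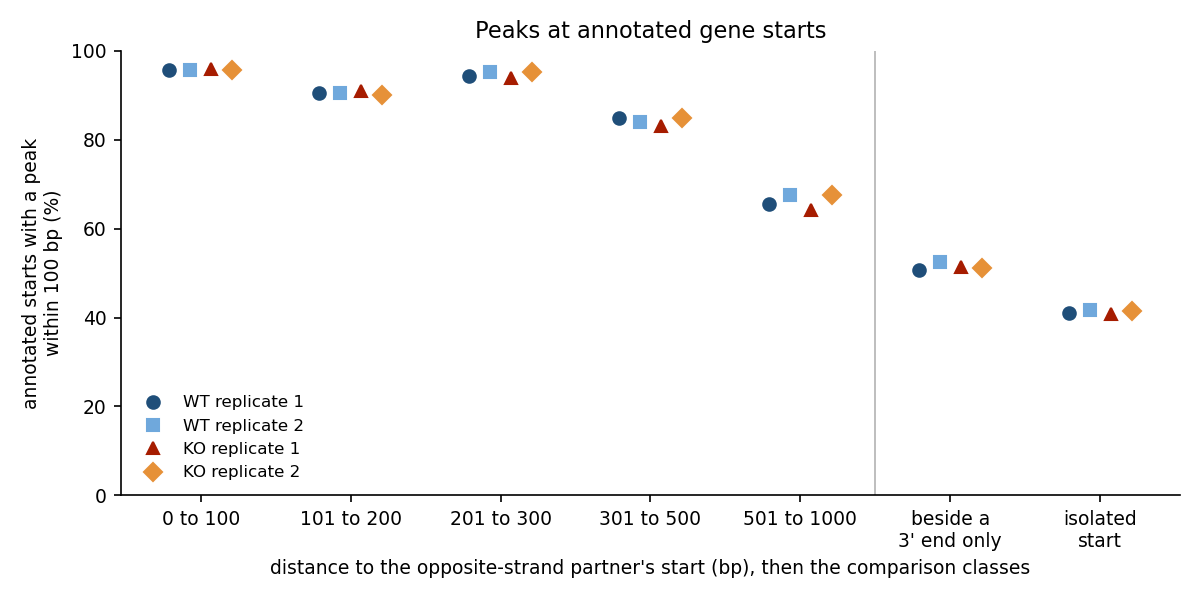
Share of annotated gene starts with a peak within 100 bp (%), for head to head starts by the distance to the partner's start (bp) and for the comparison classes to the right of the line; each point is 1 library. The libraries run from 95.6% to 95.9% at distances up to 100 bp and from 40.9% to 41.7% at isolated starts.

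Open head to head promoters were richer in some motifs than open isolated promoters. RefSeq windows of 300 bp, from 250 bp before to 50 bp after a start, were used for 13537 genes whose window matched the annotated start within 100 bp. In 1262 head to head windows with a peak in all 4 libraries, median G+C was 62.7% with a median of 25 CpG, against 60.7% and 21 in 4639 isolated windows with a peak in all 4. Isolated windows with a peak in no library (5865) had a median G+C of 47% and 3 CpG. The ETS motif CCGGAAG was in 30.3% of open head to head windows (exact interval 27.8 to 33.0), 18.7% of open isolated windows (17.6 to 19.9), 2.32% of closed isolated windows and 12% of all windows. The YY1 motif ATGGCGG was in 13.5%, 8.43%, 1.36% and 5.44%, respectively, and the TATA box TATAAA in 4.52%, 7.16%, 24.4% and 14.8%. The GC box GGGCGG differed little between open head to head windows (68.3%) and open isolated windows (68.2%), with 17.7% in closed isolated windows and 44.5% in all windows. CCAAT stood at 42.7%, 42.3%, 39.5% and 40.6% in the same order. The CRE core TGACGT stood at 15.7%, 13.2%, 3.73% and 8.89%, the NRF1 motif GCATGCG at 8.16%, 7.91%, 1.53% and 4.68%, and AP-1 (TGANTCA) at 3.25%, 4.68%, 10.6% and 7.31%. With starts up to 200 bp apart the ETS share was 32.4%, and with starts farther apart 26.5%. The windows of close pairs overlap, ATGGCGG and GGGCGG can share bases, and G+C differs between the groups. The part of base composition in these shares was not tested. The intervals cover counting error only.

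**Figure D4:**
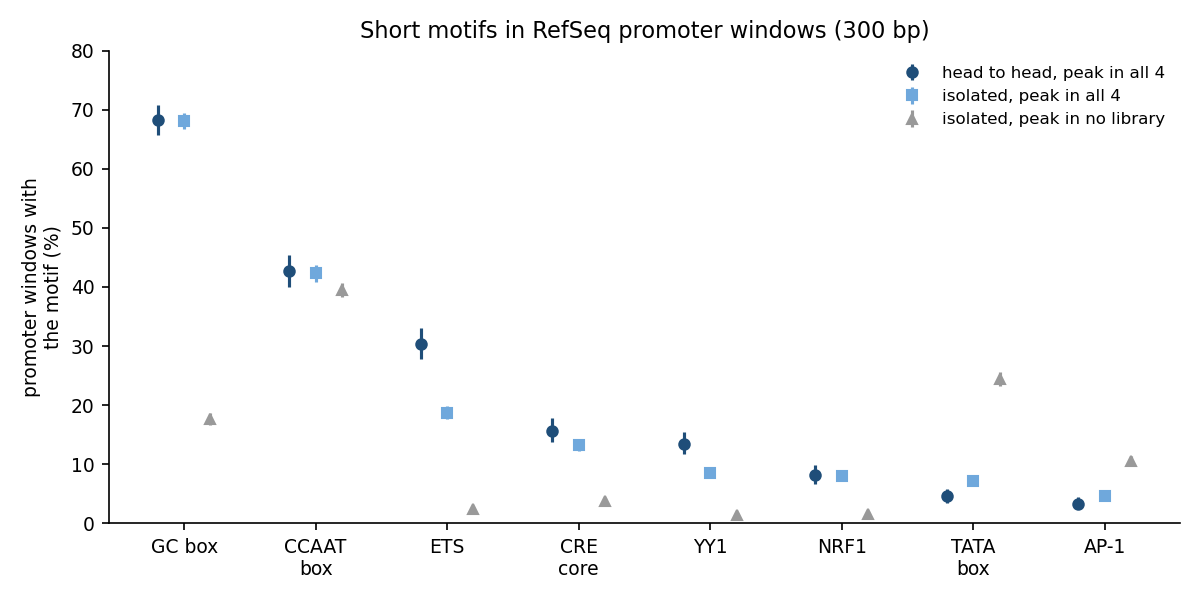
Share of 300 bp RefSeq promoter windows that hold each motif on either strand (%), with bars for the 95% exact interval, in head to head windows with a peak in all 4 libraries (n = 1262), isolated windows with a peak in all 4 (n = 4639) and isolated windows with a peak in no library (n = 5865). The ETS and YY1 points of the head to head windows lie above those of open isolated windows, while GC box and CCAAT points nearly coincide.

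Gene lists differed widely in how many members met a neighbour at an open region. Over all 21900 protein-coding genes, 17.2% had a paired region and 38.9% no region at a gene end. The shares are of all genes on a list, so they also count how many of its genes had any region at a gene end. The lists are short and were put together with earlier results of these data known, so their shares are set beside that background without a test.

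Replication-dependent histone genes, which lie in tight clusters and encode the bulk histones of S phase, had the highest share among the functional lists, with 49 of 64 (76.6%). Their 31 paired regions, 30 of them in all 4 libraries, were narrow, with a median of 515 bp against 846 bp for all paired regions. The H2ac22 and H2bc22 pair covered 668 and 673 bp in WT and 658 and 678 bp in KO, at percentiles of 99.0 to 99.6. H2ac15 and H2bc15, printed above, covered 333 and 656 bp in WT and 390 and 376 bp in KO, with the KO values inside the WT range. H2ac8 and H2bc8, also printed, covered 350 to 358 bp in every library. In 11 histone regions both KO widths exceeded both WT widths, and in 2 the reverse held, where 16.2% and 16.9% of all regions in all 4 libraries did so. H4c18 with H2ac24 covered 275 and 273 bp in WT and 800 and 704 bp in KO, with groups that did not overlap. Its fold percentiles went the other way, at 91.0 and 85.2 in WT and 76.6 and 77.5 in KO. H3c2 with H2ac4 covered 126 and 162 bp in WT and 210 and 209 bp in KO. At H2bc23 with H2ac23 the values were 310 and 320 bp in the WT libraries, 327 and 333 bp in the KO libraries. Histone genes are near-identical copies, and how reads that fit several copies were treated is not stated in the labels, so these values are uncertain. The clustered regions are not independent of each other.

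The mitochondrial lists came next. The mitochondrial ribosome list, whose products translate mitochondrial mRNAs, had 39 of 77 genes (50.6%) at paired regions, 27 of the 42 regions head to head and 40 in all 4 libraries. The respiratory chain list had 39 of 82 (47.6%), and its 41 regions, each in all 4 libraries, had a median width of 960 bp. Sdhd, a succinate dehydrogenase subunit gene, and Timm8b, encoding a chaperone of mitochondrial import, shared a region of 960 bp whose starts were 52 bp apart. It covered 706 and 923 bp in WT and 831 and 763 bp in KO, and the groups overlap. Mrpl46 and Mrps11, of the large and small mitochondrial subunit, shared 863 bp, covered 847 and 851 bp in WT and 745 and 591 bp in KO, so that both KO values were lower. Mrps12, a small-subunit gene, and Sars2, the mitochondrial seryl-tRNA synthetase gene, shared 1032 bp, covered 1016, 808, 877 and 743 bp in WT replicates 1 and 2 and KO replicates 1 and 2, with overlapping groups.

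DNA replication and repair genes had 42 of 98 (42.9%) at paired regions, 41 regions all in all 4 libraries and 29 of them head to head. Atm, the kinase of the double-strand break response, met Npat, a coactivator of histone genes, in 871 bp at percentiles of 94.8 to 98.1 in the 4 lists. Pcna, the replication clamp, met Cds2 in 1017 bp, covered 999 and 921 bp in WT and 873 and 892 bp in KO. Aminoacyl-tRNA synthetases stood at 16 of 37 (43.2%), chaperones at 23 of 56 (41.1%), the proteasome and antigen processing at 15 of 51 (29.4%) and the cytosolic ribosome at 22 of 78 (28.2%). On these lists and the histone and mitochondrial lists, only 2.44% (respiratory chain) to 5.88% (proteasome) of genes had no region at a gene end. Over all genes it was 38.9%. Genes with a paired region and with a single-gene region only numbered 3774 and 9601 over all genes. They numbered 22 and 54 for the cytosolic ribosome, a similar balance, and 15 and 33 for the proteasome list. For the mitochondrial ribosome they were 39 and 36, and for histones 49 and 13. How far genes without a region account for the shares of paired regions was not tested. Hspe1 and Hspd1, the mitochondrial chaperonin pair, shared 1065 bp, covered 982 to 1059 bp across the 4 libraries. Psmb9, an immunoproteasome subunit gene, and Tap1, a peptide transporter gene, shared 1215 bp and covered 1192 and 1027 bp in WT and 1201 and 1194 bp in KO. Psmb8, the next immunoproteasome gene, met the 3' end of Tap1 in a further region of 1349 bp, covered 1039 and 1202 bp in WT and 1349 and 1310 bp in KO.

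Textbook divergent pairs had a paired region at 26 of 28 genes, and their 16 regions had a median width of 1048 bp. The genes were listed as known close neighbours, so a high share was largely built into this list. Of the 16 regions, 9 were head to head, 3 head to tail and 4 not placed. These included Gart with Son (1471 bp), Paics with Ppat (988 bp), Surf2 with Surf1 (1173 bp) and Col4a2 with Col4a1 (1126 bp). The Gart and Son region, between a purine synthesis gene and a splicing factor gene, covered 1445 to 1471 bp in every library. The collagen IV pair, of basement membranes, had a region of low fold rank, at percentiles 9.8 and 5.0 for WT and 7.2 and 29.6 for KO. Hspb2 and Cryab, a small heat shock pair, had no region at a gene end in any library.

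Of 23 macrophage identity genes, 2 had a paired region (8.70%, beside 17.2% of all genes), while 20 had a single-gene region only, each called in all 4 libraries. Cd68, a lysosomal glycoprotein gene, met the 3' end of Eif4a1 in 545 bp, covered 503 and 512 bp in WT and 545 and 485 bp in KO. Csf1r, the receptor of macrophage colony-stimulating factor, met Hmgxb3 in 2120 bp with percentiles of 6.7 to 9.9. This region lay 418 bp beyond the higher-coordinate end of Csf1r, in an order that was not placed. At the same genes, 2 other regions were called in all 4 libraries. The list of macrophage activation and interferon genes stood at 12 of 59 (20.3%), beside 17.2% of all genes, with 10 of its 12 regions in all 4 libraries. A further 42 of its genes had a single-gene region only, and 8.47% had no region at a gene end, against 38.9% of all genes. Nfkbib, an inhibitor of NF-κB, and Sirt2, a deacetylase gene, shared the paired region with the highest lowest percentile over the libraries, 396 bp wide at chr7:28766424-28766819, where fold was 10.3 and 10.7 in the WT lists, 11.9 and 10.1 in the KO lists, and the percentile at least 99.7 in each. Irf3, a transcription factor of interferon induction, met Bcl2l12 in 993 bp with starts 10 bp apart, covered 861 and 953 bp in WT and 718 and 823 bp in KO, lower in both. Ifit1, an interferon-induced gene, met its relative Ifit1bl2 in 715 bp, covered 392 and 522 bp in WT and 675 and 705 bp in KO, wider in both. The fold percentiles of that region were 86.2 and 69.7 in WT and 69.5 and 67.4 in KO, lower in both. Tnf, the inflammatory cytokine gene, met the 3' end of Lta in 412 bp, covered 403 and 195 bp in WT and 192 and 174 bp in KO, where WT replicate 1 stood apart. Apoe, a lipid carrier gene, met Tomm40 in 479 bp, covered 316 and 340 bp in WT and 211 and 176 bp in KO. Each of these is 1 region among many, and 2 libraries against 2 cannot give an exact p below 0.33.

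Developmental regulators were the opposite extreme. None of the 58 genes on this list, such as homeobox genes that Polycomb silences in differentiated cells, had a paired region, and 39 (67.2%) had no region at a gene end.

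**Figure D5:**
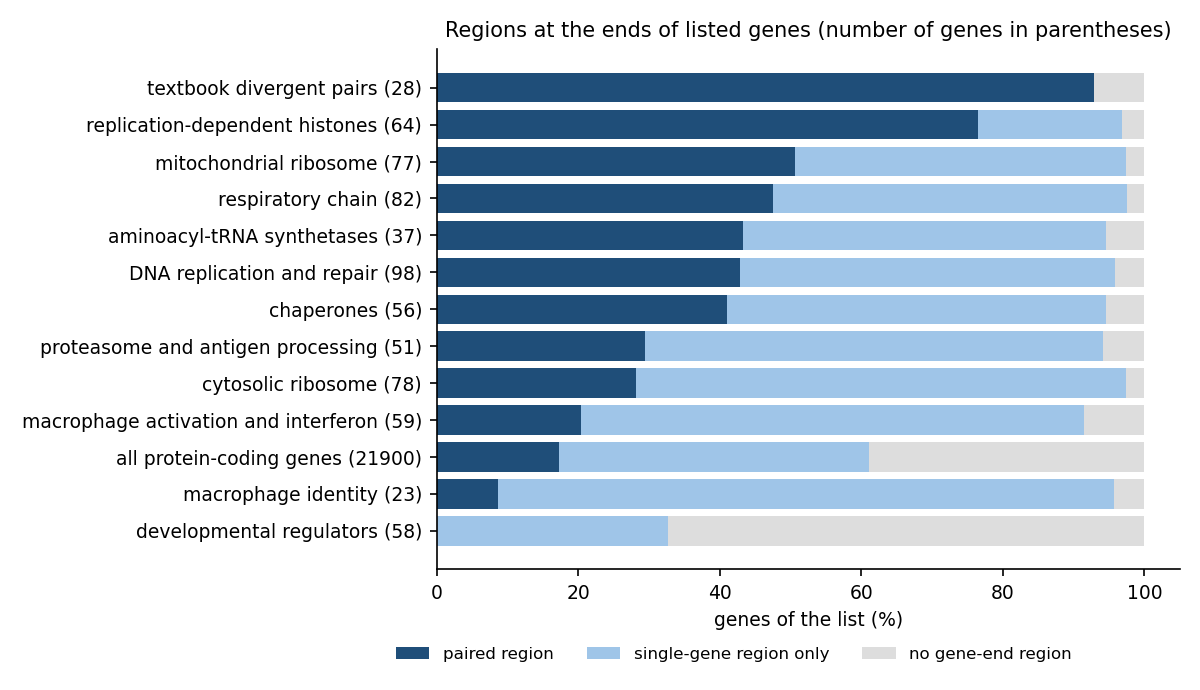
Share of genes in each list (%) with a paired region (dark), with a single-gene region only (light) and with no region at a gene end (grey), with the number of genes in parentheses. Textbook pairs (92.9%), which were listed as known neighbours, and histones (76.6%) lead. All protein-coding genes stand at 17.2%, and developmental regulators have no dark bar.

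Ranked by fold percentile, the paired regions at the top were not the widest ones. The 10 at the top ran from 396 bp (Nfkbib with Sirt2) to 876 bp (Vmn1r4 with Nt5c3). Whether the fold value depends on a peak's width through the way it is computed was not tested. A low percentile at a wide region is therefore a rank only. After Nfkbib and Sirt2, the next regions by lowest percentile were Prr11 with Ska2 (mitosis genes), Xab2 with Pet100 (repair and cytochrome oxidase assembly), H2ac6 with H2bc4, and Tctn3 with Entpd1, the latter encoding the ectonucleotidase CD39. Entpd1's region of 608 bp had a fold of 9.58 and 9.41 in the WT lists, 10.0 and 9.99 in the KO lists, with all percentiles from 99.4 to 99.6. Of the regions that reached 3 genes, 43 of 45 were in all 4 libraries. At some of them, such as those of Eef1akmt4 with Eef1akmt4-ece2 and of Cmc4 with Mtcp1, overlapping genes share an annotated end. A single end is then counted for both genes. At Timm13, Lmnb2 and Tmprss9 the fold percentiles were 99.3 and 97.2 in the WT lists, 99.9 and 99.8 in the KO lists. Peaks there covered 756 and 888 bp in WT and 444 and 759 bp in KO, with overlapping groups. The widest paired region was 2930 bp, at LOC108167694 and Gm20783. Next was Ddit3, encoding the stress factor CHOP, with Mbd6, at 2869 bp, which covered 2848 and 2838 bp in WT and 2841 and 2806 bp in KO at percentiles of 16.7 to 25.1. Some wide regions came from merging unlike peaks. At Hnrnpa2b1 and Cbx3, RNA-binding and heterochromatin protein genes whose shared CpG island is a known open-chromatin element, the 2545 bp region was covered for 1327, 1747 and 1346 bp in WT replicates 1 and 2 and KO replicate 1, but for 2539 bp in KO replicate 2. At Ctsb, the cathepsin B gene, with Fdft1, coverage was 1615 and 1616 bp in WT and 2283 and 2466 bp in KO, at percentiles of 1.9 to 10.0. The order of Ctsb and Fdft1 was not placed.

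The genotypes called almost the same paired regions. KO minus WT in the share called was -0.316 percentage points (n = 2 libraries per genotype; exact permutation test of 2 against 2, two-sided, p = 0.33, adjusted p = 0.667), and 0.33 is the smallest p this design allows. In paired regions called in all 4 libraries, the median covered width was 745 and 755.5 bp in WT and 745 and 767 bp in KO, a difference of 5.75 bp (exact permutation p = 1.0). Each of these signs turned under 2 of the alternatives, given with the limits. KO-only regions, called in both KO libraries and neither WT library, numbered 7 (0.34% of paired regions), against 0.801% of single-gene regions and 1.47% of all regions. WT-only regions also numbered 7 (0.34%), against 0.882% and 2.03%. With 1 library left out, which loosens the rule, they numbered 13 to 35 and 13 to 36, and with a window of 2 kb 28 and 20. The pairs of libraries that crossed genotype had 6 to 8 such regions each.

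The 14 genotype-only regions had mostly weak peaks. KO-only regions lay at Tcte2 with Afdn, Aif1l with Lamc3, Tnfrsf25 with Plekhg5, Klhl17 with Noc2l, Wnt5b with Gm52875, and Treh with Phldb1. Their fold values ran from 2.64 to 3.83, and the Treh region had the highest, at 3.83 and 3.34 (percentiles 31.4 and 21.1). The WT-only regions lay at Wnk4 with Vps25, Rin1 with Brms1, Ctsz with Nelfcd, Exosc9 with Ccna2, Dctn3 with Rpp25l, Slc5a6 with Atraid, and Necab2 with Osgin1. Among these, Exosc9 and Ccna2, an exosome subunit and the cyclin A2 gene, had fold 3.99 and 4.34 in a region of 158 bp. Dctn3, a dynactin subunit gene, with Rpp25l had 4.79 and 4.04 in 182 bp (percentiles 56.4 and 42.0). Ctsz, the cathepsin Z gene, had 2.95 and 2.72, at percentiles of 4.4 and 2.2. In 11 of the 14, another region at the same genes was called in all 4 libraries, and the exceptions were Tnfrsf25, Wnt5b and Wnk4. More widely, 133 of the 177 paired regions that were not in all 4 libraries (75.1%) had such a companion. The strongest of the 92 regions in a single library lay at Zmynd19 and Dph7 (KO replicate 1, percentile 66.7), Tfr2 and Actl6b (KO replicate 2, 60.2), Cs and Coq10a (WT replicate 1, 47.2), Map1lc3b and Zcchc14 (WT replicate 2, 45.0) and Foxo4 and Gm614 (KO replicate 2, 39.1).

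Widths differed between genotypes in both directions. Both KO widths exceeded both WT widths in 345 of 1882 paired regions (18.3%), and the reverse held in 289 (15.4%). In single-gene regions the shares were 16.8% and 14.8%, and over all regions in all 4 libraries 16.2% and 16.9%, so the paired shares lay near the background. The median log2 ratio of mean KO to mean WT width was 0.0097, with 5th and 95th percentiles of -0.39 and 0.41, and 21 of 1882 regions differed at least 2-fold. In single-gene regions called in all 4 libraries these percentiles were -0.50 and 0.52, and 181 of 9963 differed at least 2-fold. The most narrowed in KO was at Prn and Prnd (465 and 285 bp in WT, 107 and 178 bp in KO, log2 ratio -1.40). These same-strand genes overlap and share an annotated 3' end, 493 bp from the region, so it is a single end counted for both. Eno2, neuronal enolase, with Lrrc23 had 524 and 446 bp in WT and 216 and 202 bp in KO (-1.21). Arid2, a chromatin remodelling subunit gene, with Gm38469 had 1068 and 1069 bp in WT and 407 and 569 bp in KO (-1.13). The most widened was Pianp and Cops7a, with 107 and 162 bp in WT and 642 and 476 bp in KO (2.06). Pkm, pyruvate kinase, with Gramd2 had 123 and 145 bp in WT and 485 and 221 bp in KO (1.40), and the interferon-induced Oas1h and Oas1g, which meet tail to tail, had 253 and 265 bp in WT and 630 and 469 bp in KO (1.09). Fold percentiles within each list were 48.4 and 66.9 in WT with 23.9 and 31.6 in KO at Pianp. They were 46.5 and 72.7 in WT with 37.9 and 17.7 in KO at Pkm. At Arid2 they were 32.9 in both WT lists, 65.9 and 60.5 in KO. Width and fold percentile thus moved in opposite directions at Pianp, Pkm and Arid2. At Prn, Eno2 and Oas1h the percentiles of the genotypes overlapped. These regions were picked for their ratio, so the values are a description without a test.

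By chromosome, paired regions made up 8.18% of gene-end regions on chromosome 18 and 18.2% on each of chromosomes 7, 11 and 19. On X the share was 10.96%, 39 of 356, and on Y 0 of 8.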

How the data were processed

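Broad peak lists of 4 ATAC-seq libraries were analysed, 1 list per library, not pooled. The submitters' processing notes name fastp, Bowtie2, MACS2 and mm10; the sources used here give no versions, no read shifting for the transposase, no read filters and no filter behind the deposited lists. Each deposited line gives a peak's position, a score, the fold enrichment (a ratio over local background) and its p-value and q-value as −log10, all from the authors' peak caller. Only positions and the fold entered the results. The lists hold no counts, so precision comes from the spread over libraries.

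Regions, distances and classes were computed in Python 3.11.15 with pandas 2.3.3, numpy 2.4.6, scipy 1.17.1 and matplotlib 3.10.9, from gene ends in RefSeq GRCm38.p6. Strand came from RefSeq's promoter windows, and genes without one were not placed. The steps were tested on simulated data with planted classes. Differences between classes were taken within each library (exact sign-flip permutation) and between genotypes as 2 against 2 (exact permutation), with Benjamini-Hochberg adjustment over 13 and 2 comparisons. Intervals are Clopper-Pearson at 95%.

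Named regions were the genotype-only regions (1 of them is not reported here), the 10 widest, the 10 with the highest lowest percentile, regions at most genes, regions at listed genes, the 3 on each side of the limit and the 5 strongest in a single library. Those named by width ratio were chosen after their values were seen. Members and lists were chosen with earlier results of these data known. Alternatives were other windows, stricter peaks, 50% coverage, pairs with overlapping bodies left out, centre distance, autosomes and each replicate left out. Exons and a genome sequence were not used here.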

Additional observations from a re-analysis of the deposited data

How the results depend on the processing

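Paired regions exceeded single-gene regions, head to head exceeded other placed pairs, and regions with 2 starts exceeded those with 1, in share, width and percentile under every alternative run. The share difference of paired regions ran from 4.54 to 8.98 percentage points, the width from 71.75 to 119.875 bp and the percentile from 2.80 to 11.5. With so few libraries no test could pass the usual threshold, so only direction and size speak to stability.

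Regions in every library moved with the window, the peaks kept and the overlap. Paired regions stood at 95.5% with 500 bp, 84.7% with 2 kb, 92.6% and 86.5% without the weakest 25% and 50% of peaks, 83.05% with 50% coverage and 92.4% to 93.5% without 1 replicate. Single-gene regions stood at 85.8%, 74.8%, 83.4%, 77.2%, 66.3% and 83.7% to 84.0%.

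KO-only regions numbered 3 with 500 bp, 28 with 2 kb, 18 without the weakest 50%, 21 with 50% coverage, 3 without overlapping bodies, 4 from the centre, and 13 to 35 without 1 replicate. WT-only regions numbered 2, 20, 11, 18 and 4 in the first 5 settings, and 13 to 36 without 1 replicate. Leaving out a library loosens the rule: KO-only was 13 and 20 without WT replicates 1 and 2 and 35 and 24 without KO replicates 1 and 2, and WT-only 27, 36, 26 and 13.

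KO minus WT in share turned to 0.281 with 500 bp and 0.990 without the weakest 50%, and in width to -2 without WT replicate 1 and -7.75 without KO replicate 2, within -7.75 to 17 over all replicates left out. For tail to tail regions against those at 1 gene's end, the share turned to 5.37 and 5.46 without the weakest 25% and 50%, 1.03 with 50% coverage, 0.171 without overlapping bodies, and 1.70 and 1.85 without WT replicate 1 and KO replicate 2 (range -1.49 to 1.85). Their width turned to -19 without the weakest 50% and -2.5 without WT replicate 1 (range -2.5 to 9.33), and their percentile to -0.336 with 2 kb and -0.776 without the weakest 50%. The cause of these turns was not tested.

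Across 1882 paired regions the width deviations of same-numbered libraries correlated at 0.0594. In both genotypes replicate 2 had more peaks than replicate 1 (72887 and 69210 in WT, 71111 and 67055 in KO). Whether libraries of the same number shared a batch was not tested. With the replicate block, KO minus WT in share was -0.243 and -0.389 within the numbers (exact sign-flip permutation p = 0.5, the smallest possible) and in width 0 and 11.5 bp (exact permutation p = 1.0), and neither fit can make a call. Depth is unknown, so a missing peak may be a shallow library, and peaks that passed the threshold in 1 library only are the least certain.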
